A study of Sorghum bicolor with 9 samples.

Results

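Of the 40082 loci with an FPKM value in sorghum anthers, 6967 carried no gene ID, and 258 of these reached their highest value in anthers with mature pollen, above 10 FPKM. These 258 unannotated loci were chosen by those values alone: a row without a gene ID, a highest stage value above 10 FPKM, and that value in stage A3. FPKM divides the fragments of a transcript by its length and by the depth of the library, so a short transcript with the same number of fragments has a higher value. Above the same limit, 131 unannotated loci were highest in A1 and 126 in A2.

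The plants were of the variety M35-1, grown in an open field, and no group differed from another in genotype. Stage A1 held anthers from meiosis to the tetrad, A2 anthers with microspores and A3 anthers with mature pollen, each sequenced as 3 libraries of total RNA with a stranded kit. The labels call the tissue male gametophyte, but whole anthers with their wall and tapetum were taken. The deposited table holds 1 value per stage with the replicates combined, so none of the values below has a replicate error, none of the differences was tested, and the reads behind each value are unknown. In whole anthers, fewer cells of a type and less RNA per cell cannot be told apart.

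Most marker genes that the study had picked on the same samples followed the stage labels. Sets of 3 values are given in the order A1, A2, A3. The meiotic recombinase gene DMC1 was at 15.7, 8.05 and 3.14 FPKM, and CYP703A3, which acts in pollen wall formation in the tapetum, was at 409, 942 and 0.921 FPKM. The pollen actin-binding gene PLIM2b was at 0.0935, 0.0793 and 86.2 FPKM, and the OSIPA genes and PCBP were likewise below 1 FPKM before A3. Other meiotic genes changed less from A1 to A2, with MSH5 at 8.35, 6.70 and 0.987 FPKM and HEI10 at 49.2, 45.9 and 15.7 FPKM. Of the other tapetum genes, PKS2 was at 759, 1820 and 5.06 FPKM, with the course of CYP703A3. TDR, at 175, 337 and 101 FPKM, stayed high in A3, and TIP2, at 173, 154 and 28.7 FPKM, was highest in A1.

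An assembler such as StringTie builds transcripts from aligned reads and gives a running number (MSTRG) to every locus, including those that meet no gene of the annotation used. Such a locus can be a long non-coding RNA, a small structural RNA with its flanks, a transposon, a gene missed by the annotation, or an unattached end of a known gene. A total RNA kit also keeps RNA without a poly(A) tail, which a poly(A) selection would lose. Maturing pollen stores many transcripts for germination and tube growth, and plant pollen is also known for the activity of transposons in its vegetative nucleus. No genome sequence was used here, so these loci are given by position and by the genes around them.

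The 258 loci held 4.36% of the summed FPKM of all loci in A1, 7.65% in A2 and 14.1% in A3. Each was chosen as highest in A3, so their larger sum in that stage follows from the choice. Without MSTRG.32411, a scaffold locus listed at 0 in A2, the shares were 3.86%, 7.65% and 13.3%. Without the locus with the highest A3 value they were 3.91%, 6.02% and 12.4%. The 257 other unannotated loci above 10 FPKM held 6.94%, 6.33% and 2.51%, and the 5266 named loci chosen by the same limits held 24.2%, 24.9% and 56.2%. The median of the 258 loci was at 8.76, 10.98 and 40.1 FPKM, with quartiles of 15.6 and 173.7 FPKM in A3.

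A small number of loci carried most of that sum. In A3, 82 loci (31.8%) exceeded 100 FPKM and 30 (11.6%) exceeded 1000 FPKM, whereas 87 lay between 10 and 20 FPKM. Among the 5266 named loci chosen by the same limits, 15.2% exceeded 100 FPKM and 0.874% exceeded 1000 FPKM. Those named loci were mostly much longer. Below 1000 bases the shares above 100 FPKM were closer, with 66 of 180 unannotated and 83 of 273 named loci. The 10 highest unannotated loci held 48.8% of the A3 sum of the 258, and the 30 highest held 79.8%. Of the 10 loci with the highest A3 value in the whole table, 4 belonged to this set, and of the 30 highest, 14 did.

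The most abundant was MSTRG.1672, a span of 468 bases on chromosome 1 (14884462 to 14884929), with 2895.5, 10948 and 14075 FPKM. It ranked 2nd of all loci in A3. The nearest named locus, Sobic.001G176900 at 1263 bases, was at 5.03, 4.43 and 2.99 FPKM. MSTRG.7656 on chromosome 2 (63612113 to 63612570) followed with 2694, 5584 and 8906 FPKM, 1329 bases from a locus at 38.6, 39.0 and 34.4 FPKM. Both loci stood far above their neighbours in every stage and had a larger fold from A1 to A2 (3.78 and 2.07) than from A2 to A3 (1.29 and 1.59).

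MSTRG.21905 had the opposite balance. On chromosome 6 (56331246 to 56331926) it was at 61.0, 359 and 6399 FPKM, which is 5.85-fold from A1 to A2 and 17.8-fold from A2 to A3. The nearest named locus, Sobic.006G215200 at 557 bases, was at 0.761, 0.438 and 0.0439 FPKM. MSTRG.25976 on chromosome 8 (47608417 to 47608733) was at 87.5, 455 and 2874 FPKM, and MSTRG.20602 on chromosome 6 (44838643 to 44838956) at 167, 249 and 2401 FPKM.

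The other chromosomal loci among the 12 highest had late steps of under 3-fold. MSTRG.24215 on chromosome 7 (59115594 to 59115972) was at 3152, 3118 and 4233 FPKM. MSTRG.311 on chromosome 1 (2446427 to 2446998) was at 327, 2248 and 3928 FPKM, and MSTRG.15861 on chromosome 4 (55000973 to 55001528) at 1439, 3573 and 3574 FPKM. MSTRG.15861 had the same level in A2 and A3 to within 1.00-fold, so its place in the set rests on the smallest margin of all. MSTRG.5197 on chromosome 1 (79978030 to 79978585) was at 910, 2262 and 2658 FPKM. MSTRG.18734, only 211 bases long on chromosome 5 (53194006 to 53194216), was at 1968, 1604 and 2499.9 FPKM and lay 107506 bases from the nearest named locus, which was listed at 0 in all stages. MSTRG.29769 on chromosome 10 (2476107 to 2476492) was at 1046, 868 and 2391 FPKM. All but 1 of the 12 were on a chromosome, and none of those met a gene of the RefSeq annotation.

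The exception was MSTRG.32411, on the unplaced scaffold super_414 (4291 to 5488), at 3199.9, 0 and 7059.6 FPKM. Whether the listed 0 is a measured absence cannot be told from the table, and no fold is given for it. Its neighbours showed no such gap. The named locus Sobic.K031400, 279 bases away, was at 889, 917 and 2120 FPKM, and the unannotated locus MSTRG.32412 on the same scaffold was at 274, 489 and 857 FPKM. In the counts below MSTRG.32411 enters by its direction.

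At the limit of 10 FPKM, MSTRG.25830 (10.1 FPKM in A3), MSTRG.25760 (10.1) and MSTRG.28403 (10.04) stood just inside. MSTRG.25730 (9.99), MSTRG.30277 (9.85) and MSTRG.2200 (9.84) stood just outside. MSTRG.25730 was at 0.0763 FPKM in A1 and 0.0447 in A2, so steep loci lay on either side of the limit.

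Between A2 and A3, the step that the choice of loci used, 167 of the 258 (64.7%) were at least 2-fold higher, a count that describes the set. Of the whole table, 22.8% of loci above 10 FPKM and 17.4% of loci above 0 in some stage passed the same fold. Against A1, 188 (72.9%) were at least 2-fold higher in A3, where 24% of all loci above 10 FPKM and 18.4% of those above 0 were. The median log2 change was 1.69 from A2 to A3 and 2.40 from A1 to A3. Over the named loci chosen by the same limits, which were much longer, it was 0.95 and 1.00. By length the order was mixed. Below 1000 bases the A3 over A2 median was 1.87 over the unannotated loci and 3.96 over the named loci. Under 300 bases it was 2.03 and 1.41, and from 600 to under 1000 bases 1.86 and 4.45.

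The step from meiosis to microspores was not used directly, although a locus had to be below its A3 value in both stages. In A2, 71 of the 258 loci (27.5%) were already at least 2-fold higher than in A1, where 3.95% of all loci above 10 FPKM and 3.31% of all loci above 0 were. Of the 257 other unannotated loci above 10 FPKM, 30 (11.7%) were, and of the 5266 named loci highest in A3, 172 (3.27%). Of those 257, 131 were highest in A1 and could not pass this fold, so their 11.7% is lowered by how they were chosen. All 30 came from the 126 highest in A2, a choice that itself favours this fold. Whether the early rise is particular to unannotated loci highest in A3 therefore cannot be told from these shares. The whole table also holds loci highest in A1. At the same step 5 of the 258 loci (1.94%) were lower by 2-fold or more, against 0.842% of all loci above 10 FPKM and 0.989% of those above 0. The share already higher in A2 was therefore above that of the whole table and of named loci chosen by the same limits, although no replicate error could be set beside it. The median log2 from A1 to A2 was 0.28 over the 258 loci, 0.00 over those named loci and -0.05 over all loci above 10 FPKM.

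Sorted by both steps, 111 loci (43.0%) rose at least 2-fold only from A2 to A3, with medians of 2.53, 2.89 and 23.9 FPKM. A further 51 (19.8%) rose at both steps, with medians of 3.52, 14.7 and 115 FPKM, and 20 (7.75%) rose only from A1 to A2, with medians of 51.2, 154 and 274 FPKM. Another 71 (27.5%) stayed within 2-fold at both steps, at 20.4, 23.1 and 39.2 FPKM, and 5 (1.94%) were lower in A2. Named loci chosen by the same limits had a different mix, with 45.3% rising only from A2 to A3, 2.26% at both steps, 1.01% only from A1 to A2 and 50.9% within 2-fold.

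**Figure D1:**
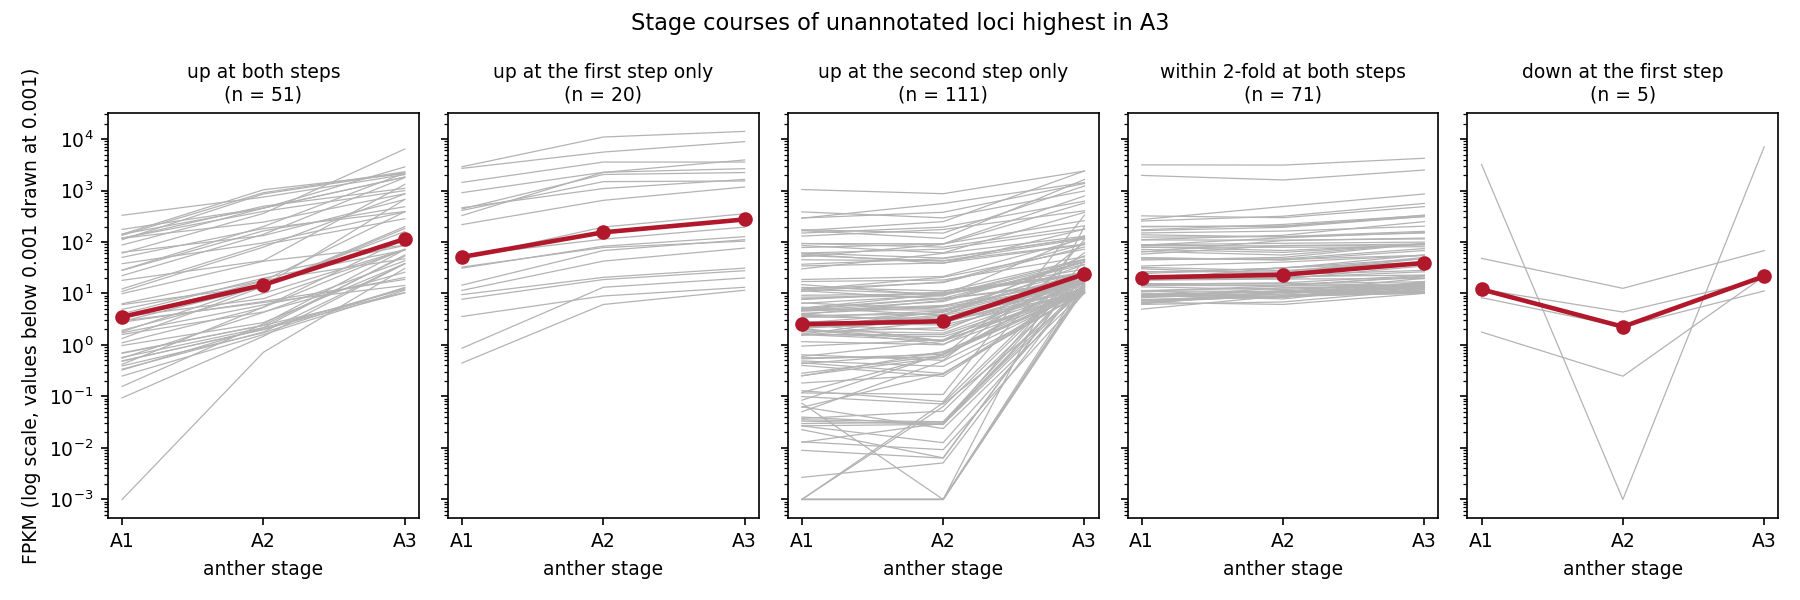
FPKM (log scale) of each of the 258 unannotated loci in A1, A2 and A3, split by the steps at which they changed at least 2-fold on the log2(FPKM + 0.5) scale. Grey lines are single loci, the red line is the median of the panel, and values below 0.001 FPKM are drawn at 0.001. The 51 loci that rose at both steps have medians of 3.52, 14.7 and 115 FPKM, while the 111 that rose only from A2 to A3 have medians of 2.53 and 2.89 FPKM in the earlier stages.

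The 51 loci that rose at both steps were mostly short and many were abundant. Of these, 47 spanned fewer than 1000 bases, 26 exceeded 100 FPKM and 12 exceeded 1000 FPKM in A3, and their median folds were 3.33 from A1 to A2 and 5.41 from A2 to A3. MSTRG.29144 on chromosome 9 (56478133 to 56478652) was at 1.34, 13.7 and 182.5 FPKM, with log2 steps of 2.95 and 3.69. Its neighbour Sobic.009G221600, 425 bases away, was at 10.6, 11.4 and 3.73 FPKM. MSTRG.559 on chromosome 1 (4458195 to 4458884) was at 111, 858 and 2222 FPKM, 803 bases from Sobic.001G059600, which did not exceed 0.0300 FPKM in any stage.

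Other loci of this kind covered a wide range of levels. MSTRG.370 on chromosome 1 (2887280 to 2887564) was at 17.99, 43.6 and 1314 FPKM, with most of its gain at the later step. MSTRG.28067 on chromosome 9 (45066845 to 45067225) was at 28.5, 199.7 and 2174 FPKM, and MSTRG.3588 on chromosome 1 (65920558 to 65921267) at 22.2, 140.7 and 1777 FPKM. MSTRG.17997 on chromosome 5 (6906993 to 6907343) was at 6.09, 14.0 and 673 FPKM. These 4 loci were all higher in each stage than in the one before, as were 174 of the 258 (67.4%), against 49.9% of the named loci chosen by the same limits.

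The largest early change was that of MSTRG.23922 on chromosome 7 (54136833 to 54137067), at 0.867, 13.2 and 19.98 FPKM, a log2 step of 3.33 from A1 to A2 and of 0.58 after it. MSTRG.31662 on chromosome 10 (55957854 to 55958407) likewise had nearly all of its gain early, at 439, 2049.9 and 2234 FPKM. MSTRG.14671, MSTRG.18748, MSTRG.21497 and MSTRG.24016 were, with MSTRG.15861, the loci with the smallest A3 over A2 folds, of 1.00 to 1.02, and without replicate values it cannot be told whether A3 or A2 was their highest stage.

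**Figure D2:**
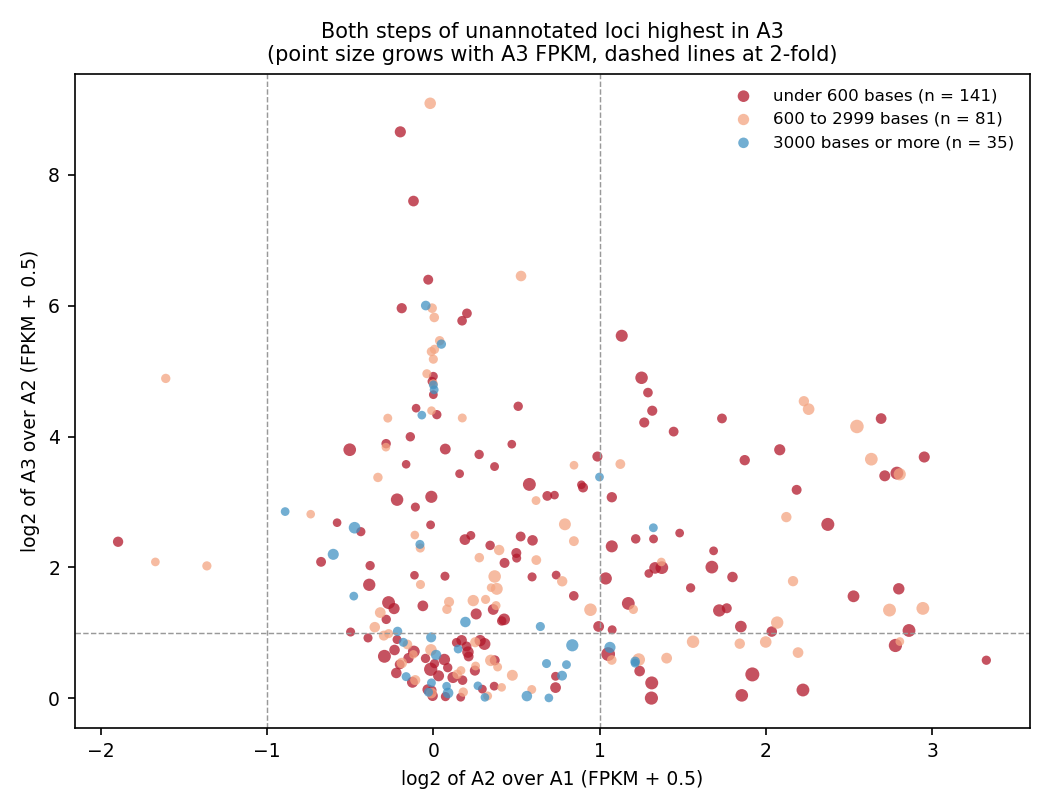
Each point is an unannotated locus highest in A3, with its log2 change from A1 to A2 (FPKM + 0.5) on the x axis and from A2 to A3 on the y axis, coloured by length, larger with a higher A3 value, and with dashed lines at 2-fold. MSTRG.32411, listed at 0 in A2, is left out. Loci of 3000 bases or more lie mostly left of the 2-fold line at A2 over A1, and the Spearman coefficient of the 2 steps is -0.04 over 258 loci.

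The early rise differed with length and with level. Among loci under 300 bases, 11 of 33 (33.3%) were at least 2-fold above A1 in A2, and among those of 300 to under 600 bases 35 of 108 (32.4%). From 600 to under 1000 bases it was 12 of 39 (30.8%), from 1000 to under 3000 bases 9 of 43 (20.9%), and for 3000 bases or more 4 of 35 (11.4%). Below 1000 bases the share was 58 of 180 (32.2%) in this set and 21 of 273 (7.69%) in named loci highest in A3. In the other unannotated loci above 10 FPKM it was 19 of 145 (13.1%), a group that includes loci highest in A1, which could not pass this fold.

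By level, 21 of the 30 loci above 1000 FPKM in A3 (70%) were at least 2-fold higher in A2 than in A1. Between 100 and 1000 FPKM it was 19 of 52 (36.5%), and below 100 FPKM 31 of 176 (17.6%). Named loci highest in A3 had 12 of 46 (26.1%), 46 of 753 (6.11%) and 114 of 4467 (2.55%) in the same order of level. The share thus went up with A3 level in both kinds of locus and was higher in the unannotated ones in each class. Loci near 0 in A1 and A2 rarely pass the fold once 0.5 FPKM is added. Of the 40 unannotated loci below 1 FPKM in both stages, 3 exceeded 100 FPKM in A3, so this floor bears mostly on the lowest class. Whether length, level or the kind of RNA goes with the early rise on its own was not tested.

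**Figure D3:**
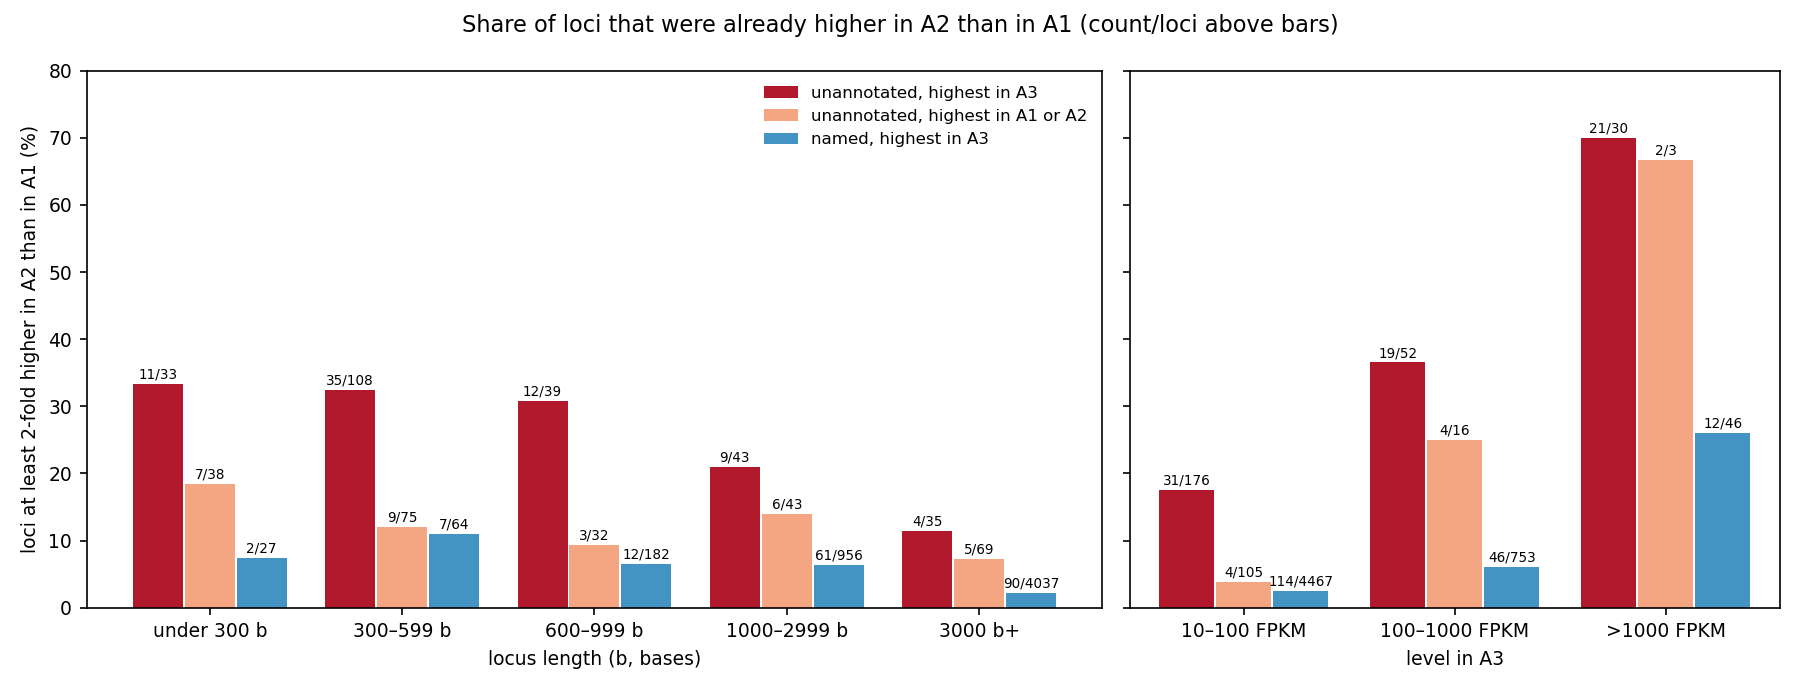
Bars give the percentage of loci whose A2 value was at least 2-fold the A1 value, by locus length in bases (left) and by A3 level in FPKM (right), with counts above the bars. Unannotated loci highest in A3 (red) reach 33.3% below 300 bases and 70% above 1000 FPKM, against 7.41% and 26.1% of named loci highest in A3 (blue). Other unannotated loci above 10 FPKM (orange) lie between them in every class shown, but include loci highest in A1, which cannot pass this fold. Only 3 orange loci exceed 1000 FPKM in A3, and those below 10 FPKM in A3 are in no level class.

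The loci were short. Their span had quartiles of 379, 556 and 1384 bases, and 180 of 258 (69.8%) were under 1000 bases, against 56.4% of the other unannotated loci above 10 FPKM, 63.2% of all other unannotated loci and 5.18% of named loci highest in A3. The median of those named loci was 5211 bases. Of the 30 loci above 1000 FPKM, 26 were under 1000 bases and the median span was 555 bases. Length and A3 level had a Spearman coefficient of -0.16 over the 258 loci, a weak relation given only as a description, since FPKM itself divides by length.

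The shortest were MSTRG.32338 on scaffold super_2072, with 200 bases and 0.2497, 1.59 and 11.5 FPKM, MSTRG.19496 on chromosome 5 (69155830 to 69156030), with 201 bases and 15.6, 15.5 and 16.9 FPKM, and MSTRG.30188 on chromosome 10 (6182744 to 6182944). MSTRG.30188, also of 201 bases, was at 0.645, 0.504 and 62.1 FPKM and lay in the RefSeq coding gene LOC110431256. The longest were MSTRG.30757 on chromosome 10 (18269054 to 18292770) at 6.47, 10.7 and 15.6 FPKM, MSTRG.25349 on chromosome 8 (4873981 to 4896451) at 11.1, 11.01 and 13.03 FPKM, and MSTRG.12845 on chromosome 3 (66565838 to 66579954) at 0.391, 1.73 and 13.1 FPKM. All 3 of the longest shared bases with a named locus.

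The RefSeq annotation gave a name to part of the set. On the 10 chromosomes, 67 of 238 loci (28.2%) overlapped a RefSeq gene, against 19.7% of the other unannotated loci above 10 FPKM and 28.3% of all other unannotated loci. The overlaps were with protein-coding genes for 37 loci, long non-coding RNAs for 27, tRNAs for 5 and pseudogenes for 2, some loci meeting several kinds. For 33 loci only genes without a named locus were met, and 27 lay in a coding gene that a named locus also met. The remaining 171 met no RefSeq gene, among them 28 of the 29 chromosomal loci above 1000 FPKM. Scaffold loci, MSTRG.32411 included, were not compared with RefSeq.

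The exception among the 29 was MSTRG.16835 on chromosome 4 (63809402 to 63809940), which overlapped the pseudogene LOC110434884 and was at 176, 456 and 1821 FPKM. The nearest named locus to it, Sobic.004G298800 at 363 bases, was at 269, 926 and 1061 FPKM. Both were higher in each stage than in the one before.

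Among loci on long non-coding RNA genes, MSTRG.28776 on chromosome 9 (53647629 to 53654733, LOC110430336) was at 85.6, 61.5 and 377 FPKM. MSTRG.4308 on chromosome 1 (72269527 to 72273649, LOC110431767) was at 58.4, 38.3 and 178 FPKM. Both were lower in A2 than in A1 and highest in A3. MSTRG.25638 (LOC110437485) was listed at 0 in A1 and A2 and had 13.5 FPKM in A3, and MSTRG.15356 (LOC110435149) was at 0.0027, 0.0051 and 19.9 FPKM.

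The 5 loci on tRNA genes, which encode the adaptors of translation, did not share a course. MSTRG.23497 (TRNAH-AUG), which also overlapped the coding gene LOC110437239, was flat at 79.3, 79.0 and 81.0 FPKM. MSTRG.10124 (TRNAM-CAU) was at 63.9, 107 and 119 FPKM. MSTRG.3447 and MSTRG.20841, both on TRNAW-CCA genes but on chromosomes 1 and 6, were at 0.491, 1.98 and 12.9 FPKM and at 0.687, 2.41 and 10.4 FPKM. MSTRG.28836 (TRNAM-CAU) was at 2.91, 6.69 and 14.3 FPKM. Reads shared between near-identical tRNA genes could not be told apart.

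A total of 40 loci (15.5%) were below 1 FPKM in both A1 and A2, as were 5.77% of all loci above 10 FPKM and 12.3% of the named loci highest in A3. Their median was 15.1 FPKM in A3 and 714.5 bases in length, and 3 exceeded 100 FPKM. MSTRG.30024 on chromosome 10 (4439732 to 4440785) was at 0.117, 0.109 and 333 FPKM, 9.10 on the log2 scale from A2 to A3. MSTRG.5236 on chromosome 1 (80255145 to 80255527) was at 0.0738 FPKM in A1, 0 with microspores and 202 with pollen. MSTRG.14173 on chromosome 4 (3433942 to 3434235) was at 0.130, 0.0796 and 112 FPKM.

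These 3 loci each lay close to a named locus with the same course. MSTRG.30024 was 753 bases from Sobic.010G056900, at 0.00584, 0.00719 and 286 FPKM. MSTRG.5236 was 13 bases from Sobic.001G539760, which matches an expansin, a protein that loosens cell walls, and was at 0.0118, 0 and 29.9 FPKM. MSTRG.14173 was 302 bases from Sobic.004G041800, at 0.0870, 0.206 and 221 FPKM, and both overlapped the RefSeq coding gene LOC8074638. An unattached transcript end and a separate RNA cannot be told apart from the table.

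Over the 40, such pairs were a minority. Within 1 kb of a named locus lay 16 of them. For 4 of the 16 that neighbour was also below 1 FPKM in A1 and A2 and above 10 FPKM in A3. This is a larger share than the 1.95% of all named loci with that pattern, and the difference was not tested. MSTRG.17661 and MSTRG.20035 had such a nearest named locus farther away, at 1198 and 5011 bases. MSTRG.31075 on chromosome 10 (46183697 to 46185423) overlapped a named locus listed at 0. It was at 0.282, 0.627 and 98.4 FPKM, while Sobic.010G157100 was listed at 0 in all stages, and it met the RefSeq gene LOC8072648. MSTRG.19754 on chromosome 6 (974046 to 974630) was at 0.0398, 0.0285 and 44.1 FPKM, 509 bases from Sobic.006G006200, which did not exceed 0.0582 FPKM.

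Overlapping spans need care, because the table gives several rows for 1 stretch of the genome. Of the 258 loci, 20 shared bases with a named locus. MSTRG.24522 on chromosome 7 (62303851 to 62312885) was at 0.0269, 0.0287 and 13.4 FPKM on the span of Sobic.007G190200, which was at 5.13, 6.18 and 2965 FPKM. MSTRG.10008 on chromosome 3 (6010779 to 6014609) was at 0.0995, 0.0714 and 10.97 FPKM on the span of Sobic.003G070200, at 0.239, 0.148 and 2375 FPKM. In both cases the unannotated row held under 1% of the named row in A3. MSTRG.23100 and MSTRG.23101 shared a span of 256 bases on chromosome 7 (6581200 to 6581455), with 0.120, 0.649 and 10.5 FPKM in 1 row and 411, 1488 and 1533 FPKM in the other.

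Over the whole set, the nearest named loci were highest in A3 about as often as named loci in general. A named locus was found on the same sequence for 250 of them, at a median distance of 1976 bases, against 1791 bases for the other unannotated loci above 10 FPKM and 3580.5 bases for all other unannotated loci. Within 1 kb lay 83 (33.2%), against 35.1% and 26.6%. The nearest named locus was highest in A3 for 112 (44.8%), where 43.0% of all named loci were, and it was at least 2-fold higher in A3 than in A2 for 42 (16.8%), against 15.1% and 15.8% in the other unannotated sets. For 100 (40%) it was below 1 FPKM in every stage, as were 39.9% of all named loci.

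Joint change was counted by distance. Of 20 loci that overlapped a named locus, 11 were at least 2-fold higher in A3 than in A2 and in 4 cases both were. From 1 to 1000 bases it was 37 of 63 with 10 joint cases. Beyond that and up to 10 kb it was 81 of 123 with 13, and beyond 10 kb 30 of 44 with 0. From overlapping loci outwards, the neighbour itself passed the fold in 9, 13, 19 and 1 cases. Beyond 10 kb at most 1 joint case was thus possible, and whether joint change varies with distance was not tested. The last 44 had 27 distinct neighbours, since 11 loci shared Sobic.005G115000 and 8 shared Sobic.K044403. Over all 250 pairs the Spearman coefficient of the log2 A3 over A2 values was 0.04, where several pairs share a neighbour.

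**Figure D4:**
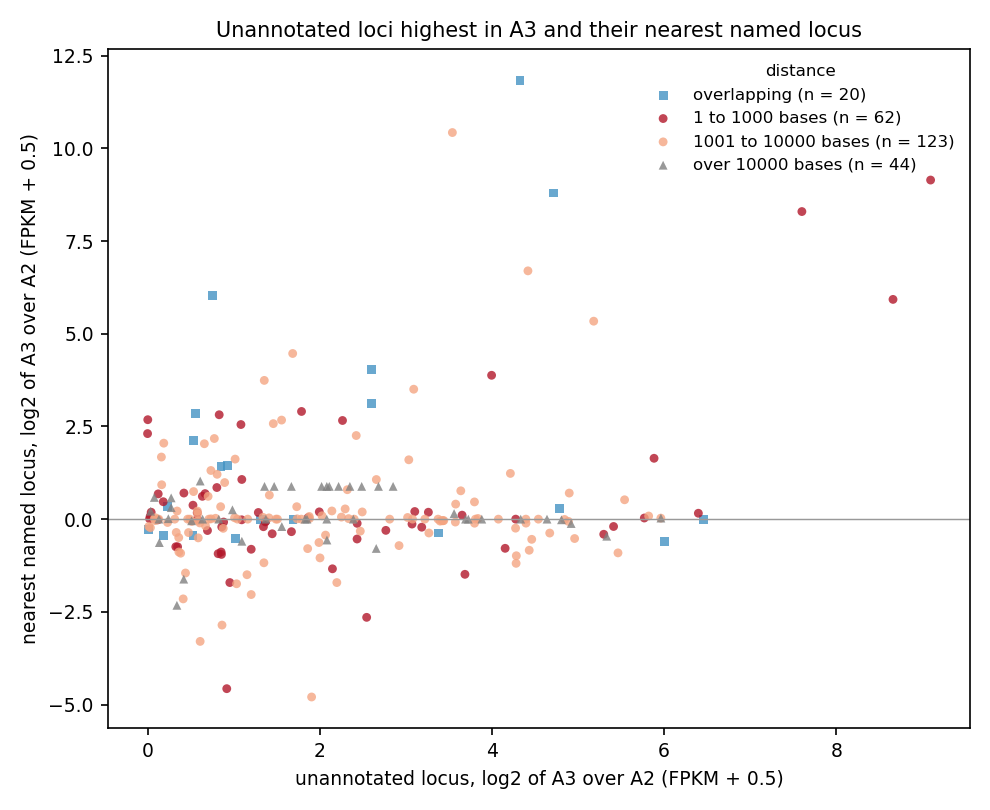
Log2 of A3 over A2 (FPKM + 0.5) of each unannotated locus on the x axis and of its nearest named locus on the y axis, by distance in bases, without MSTRG.32411. Most neighbours lie near 0 whatever the unannotated locus does, and the 3 red points at the right above 5 on the y axis are MSTRG.30024, MSTRG.5236 and MSTRG.14173 with their neighbours.

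The loci were spread over all chromosomes, with 13 on chromosome 9 to 39 on chromosome 1 and 20 on unplaced scaffolds. Per 1000 named loci there were 4.47 on chromosome 2 and 11.7 on chromosome 5. They formed 2.41% of the unannotated loci of chromosome 2, 4.79% of those of chromosome 1 and 10.7% of those on unplaced scaffolds.

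Within 10000 bases of another such locus lay 31 of the 258, in 12 runs, of which 9 were pairs. One pair on chromosome 6 (56773897 to 56778607) joined MSTRG.21968, at 385, 294 and 980.02 FPKM, and MSTRG.21970, at 173, 149 and 1224 FPKM. Loci of 1 run may be pieces of a single transcript and are not independent.

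The longest run held 5 loci on chromosome 1 (31757120 to 31772303) with summed values of 99.1, 122 and 385 FPKM and A3 over A2 folds from 2.81 to 10.4. MSTRG.2495 led it with 78.1, 92.3 and 260.4 FPKM, followed by MSTRG.2493 at 11.9, 20.7 and 72.5 FPKM. MSTRG.2496 was at 2.53, 1.91 and 24.5 FPKM, and it and MSTRG.2495 overlapped the long non-coding RNA gene LOC110431596. MSTRG.2486 was at 4.62, 5.87 and 17.6 FPKM and MSTRG.2489 at 2.06, 1.04 and 10.3 FPKM. The named locus nearest to all of them, Sobic.001G260550, was listed at 0 in all stages.

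The other runs of more than a pair, with 4 loci each, belonged to 1 stretch of chromosome 5. Between 45439531 and 45567577, a span of 128047 bases, the table had 23 loci and 0 with a gene ID. Of these, 18 were highest in A3 and 11 belonged to the set, with summed values of 217, 254 and 863 FPKM. For comparison, 43.0% of all named loci and 258 of the 515 unannotated loci above 10 FPKM were highest in A3. The 18 include the 11 loci of the set, which were highest in A3 by choice, and the stretch was found through them. It was also cut at its first and last locus of the set. The other 12 loci were not held to 10 FPKM. The 18 of 23 is therefore a description and cannot be measured against those shares. The nearest named locus, Sobic.005G115000, lay 344865 to 472247 bases away and was at 0, 0.0127 and 0.446 FPKM, and the 5 loci of the set farthest from any named locus were all in this stretch.

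All 11 loci, each chosen as highest in A3, were at least 2-fold higher in A3 than in A2, at very different levels. The same fold was passed by 64.7% of the 258 loci and by 22.8% of all loci above 10 FPKM. The A3 over A2 folds of the 11 lay between 2.57 and 7.22, with a median of 4.32, and their A3 values between 10.5 and 620 FPKM. MSTRG.18642 was the highest at 149, 194 and 620 FPKM, followed by MSTRG.18619 at 17.1, 18.3 and 51.6 FPKM and MSTRG.18630 at 6.43, 9.30 and 45.1 FPKM. MSTRG.18623 was at 5.13, 8.14 and 36.8 FPKM and MSTRG.18627 at 9.23, 9.80 and 25.9 FPKM.

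The early step of these loci was small or downward. Of the 11, 0 gained 2-fold or more from A1 to A2, 5 were lower in A2, and 2 lost 2-fold or more. Among the 247 loci outside the stretch 71 gained 2-fold or more and 74 were lower in A2, and this difference was not tested. The 2 with a loss were MSTRG.18641 at 12.02, 4.37 and 19.3 FPKM and MSTRG.18624 at 8.30, 2.26 and 11.2 FPKM. MSTRG.18620 (2.66, 1.20 and 11.8 FPKM), MSTRG.18626 (2.07, 1.22 and 10.5 FPKM) and MSTRG.18635 (2.84, 2.66 and 15.6 FPKM) were the other loci lower in A2, and MSTRG.18628 was at 1.78, 2.17 and 14.5 FPKM. Of the 11, 8 overlapped RefSeq genes, 7 of them only long non-coding RNA genes such as LOC110435582 and LOC110435578. Several loci met the same RefSeq gene, so the 11 stand for fewer transcription units.

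**Figure D5:**
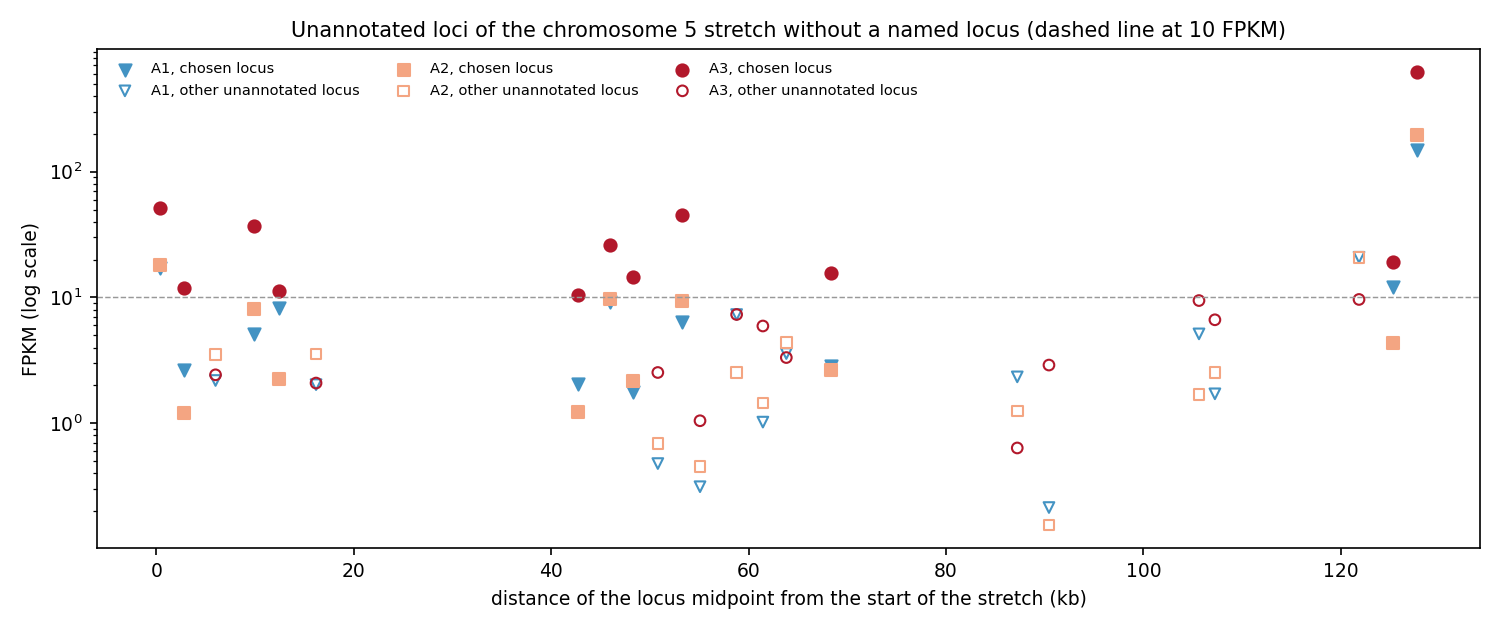
FPKM (log scale) of the 23 unannotated loci of the chromosome 5 stretch against the distance of their midpoint from its start in kb, with triangles for A1, squares for A2 and circles for A3. Filled symbols are the 11 loci of the set, open symbols the other 12 loci, and the dashed line marks 10 FPKM. The A3 circles of the filled loci lie above both earlier stages throughout, as their choice requires, from 10.5 to 620 FPKM.

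A comparable group lay on the unplaced scaffold super_16, which had 38 loci, 1 with a gene ID and 28 highest in A3, where 43.0% of all named loci were. Of the 38, 9 belonged to the set, with A3 values from 10.3 to 867 FPKM and A3 over A2 folds from 2.59 to 20.2. These 9 are among the 28 by choice, and the scaffold was singled out for holding them. The 28 of 38 therefore only describes the scaffold, and the share of named loci is that of another kind of locus. MSTRG.32312 (228040 to 228536) was the highest at 118, 243 and 867 FPKM, and MSTRG.32289 (51012 to 51273) was at 0.564, 0.580 and 21.3 FPKM. MSTRG.32304 (199328 to 199709) was at 48.2, 12.6 and 68.2 FPKM, with a log2 step of -1.90 from A1 to A2. The 5th locus with a decrease of at least 2-fold, MSTRG.19977 on chromosome 6 (6251229 to 6252708), was at 1.78, 0.248 and 21.7 FPKM. Without the chromosome 5 stretch and the unplaced scaffolds, 1 locus was lower by 2-fold or more at the early step, and 29.5% were higher by 2-fold or more.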

How the data were processed

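Whole anthers of sorghum variety M35-1 were sequenced at 3 stages, with 3 libraries per stage. The deposited values are FPKM, made by the authors, per the labels, with Bowtie2 2.2.9, STAR, StringTie 1.3.3b and Cuffdiff, with the 3 replicates of a stage merged into a single column. No value per library was used here, so the planned limma fit was not run, no difference was tested and no standard deviation is given. Read depth per locus cannot be taken from FPKM, so how precise a value is remains unknown.

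Loci without a gene ID were kept where the highest stage value was above 10 FPKM and lay in A3. Folds were taken on the log2(FPKM + 0.5) scale and counted from 2-fold upwards. Length is the span of the locus, introns included. Distances run from the edge of 1 span to the nearest edge of a span with a gene ID. Members in 1 run lie at most 10000 bases apart. Positions are the deposited ones on Phytozome v3.0.1 with 1 added to the start, which met 667 RefSeq gene starts (assembly Sorghum_bicolor_NCBIv3) over 25041 single-ID loci, against 115 without it. RefSeq gave names and overlaps only. The table holds no strand and no read mapping quality, so antisense RNA and near-identical copies could not be told apart.

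Loci named with values are the 12 highest in A3, the extremes of both steps, the longest, shortest and most isolated, those beside the 10 FPKM limit, and runs of 3 or more. Other loci were named after their values were seen. Members and lists were chosen with earlier results of these data known. Alternatives were pseudocounts of 0.1 and 1 FPKM, minimums of 5 and 20 FPKM, median-of-ratios scaling, other distance limits and, chosen after seeing the data, equal stage sums and left-out loci. The counting was tested on simulated data. Python 3.11.15, numpy 2.4.6, pandas 2.3.3 and matplotlib 3.10.9 were used.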

Additional observations from a re-analysis of the deposited data

How the results depend on the processing

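A minimum of 5 FPKM in place of 10 gave 430 members, of which 282 (65.6%) were at least 2-fold higher in A3 than in A2, and a minimum of 20 FPKM gave 171 members with 111 such loci (64.9%), so the count followed the limit while the share moved by under 1 percentage point. Without the chromosome 5 stretch and the unplaced scaffolds, 1 member in place of 5 was lower in A2 by 2-fold or more against A1. Within 5000 bases in place of 1 kb of a named locus lay 178 members, and runs with gaps of up to 50000 bases held 51. The other 33 of 40 alternatives stayed within 1.5 times the reported value. Among them, the count at least 2-fold higher in A2 than in A1 lay between 64 at a pseudocount of 1 FPKM and 79 at 0.1 FPKM. Scaling every stage to the same FPKM sum left 208 members and moved the median log2 over loci above 10 FPKM by -0.27 for A3 over A2 and by -0.35 for A3 over A1, and the medians of the 258 loci were then 1.42 and 2.07. Single values per stage set the limit throughout: leaving out replicates was not run, and no depth or replicate error stands behind a count. No paired analysis was possible because the deposited columns carry no replicate number.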
